A study of Homo sapiens with 14 samples.

Results

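The 51 genes described here encode proteins of mitosis and chromosome segregation: the kinases, cyclins and transcription factors of mitotic entry, the spindle checkpoint and anaphase machinery, kinetochore and chromosomal passenger proteins, spindle motors, cytokinesis proteins, and condensin with its partners. They were chosen by name, by a rule that uses no measured value, but with earlier results of these data known. All 51 were found among the 25952 genes of the deposited count table. All 51 also passed the filter on low counts, so no member was left out. The level of each was measured by RNA sequencing of NT2, an embryonal carcinoma line of human origin whose cells resemble pluripotent cells and can be driven towards several lineages.

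The series was designed to follow nucleotide excision repair capacity while NT2 cells differentiate, and it holds 14 libraries of total RNA in 7 groups of 2. The reference group was harvested untreated at day 0. In one arm, cells in serum-containing medium received retinoic acid (RA, final concentration 10 µM) to induce neurons and were harvested at day 5, day 10 or day 21. In the other arm they received bone morphogenetic protein 2 (BMP2) to induce muscle and were harvested at the same days. For BMP2 the labels name 30 ng/ml in a first test and 40 ng/ml later, without saying which library received which dose. Every group was a bulk culture of this 1 cell line, and the labels do not say whether the 2 replicates of a group came from separate cultures, so a p-value here reflects no more than the spread among these libraries, which may be technical. The untreated group is labelled as having no treatment and stands at day 0 alone, so treatment and time in culture cannot be told apart in a comparison with day 0.

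Cells that divide make most mitosis proteins anew in each cycle, and their genes are transcribed mainly in G2 and M phase. As background, the MuvB complex with B-MYB (the product of MYBL2) and later FOXM1 activates many of these genes, whereas in cells that leave the cycle the DREAM complex, MuvB with the pocket proteins p107 or p130 (RBL1, RBL2) and E2F4 or E2F5, represses them. Binding of these complexes is known to run through the cell cycle genes homology region (CHR), often with CCAAT boxes for NF-Y nearby, while DNA replication genes more often carry E2F sites. NT2 cells are known to stop dividing as they form neurons.

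The promoters of the members were searched for these letters because the genes moved together. Of the 51 members, 43 had an entry in a RefSeq promoter table (GRCh38.p14, 250 bases before to 50 bases after each start). AURKA, BIRC5, BUB3, FOXM1, RACGAP1, TPX2, TTK and UBE2C did not match. The 130 bases before the start are given for MKI67 (chr10:128126424-128126553, minus strand), KIF11 (chr10:92593000-92593129, plus strand) and ESPL1 (chr12:53268169-53268298, plus strand), which hold both motifs, for NCAPH (chr2:96335636-96335765, plus strand), which holds only a CCAAT box, and for the replication gene MCM6 (chr2:135876444-135876573, minus strand) as a contrast. Capitals mark the CHR motif TTTGAA, which reads as TTCAAA from the opposite strand. They also mark the NF-Y box CCAAT, which from the opposite strand reads as ATTGG. In MCM6 they mark overlapping E2F motifs, TTTGGCGC on the gene's strand and TTTCGCGC on the opposite strand. All are written 5′ to 3′ along the gene's strand.
MKI67: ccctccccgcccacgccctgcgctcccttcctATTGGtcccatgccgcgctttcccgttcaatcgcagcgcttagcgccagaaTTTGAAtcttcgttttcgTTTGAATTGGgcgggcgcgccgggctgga
KIF11: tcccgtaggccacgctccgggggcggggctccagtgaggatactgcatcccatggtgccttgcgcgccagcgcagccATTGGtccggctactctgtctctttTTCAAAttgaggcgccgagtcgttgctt
ESPL1: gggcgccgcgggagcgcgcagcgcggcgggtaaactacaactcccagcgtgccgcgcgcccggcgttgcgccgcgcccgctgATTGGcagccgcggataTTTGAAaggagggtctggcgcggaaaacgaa
NCAPH: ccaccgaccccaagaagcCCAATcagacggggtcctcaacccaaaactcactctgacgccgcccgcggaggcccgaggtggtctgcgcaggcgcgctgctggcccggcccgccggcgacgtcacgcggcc
MCM6: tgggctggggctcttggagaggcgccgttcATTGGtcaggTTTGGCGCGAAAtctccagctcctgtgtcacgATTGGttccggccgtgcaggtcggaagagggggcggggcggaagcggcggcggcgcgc

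In MKI67 the TTTGAA matches begin 47 and 29 bases before the start, and the second of them overlaps a CCAAT box read on the opposite strand. In KIF11 the TTTGAA match, read on the opposite strand, begins 28 bases before the start, and in ESPL1 it begins 31 bases before it. Over both strands of the 300-base window, TTTGAA stood in 32 of 43 member promoters (74.4%), against 34 of 80 promoters of other mitosis genes (42.5%), 1 of 36 of DNA replication genes (2.78%) and 18.2% of all 27305 genes in the table. Within 50 bases of the start on either side it stood in 27 of the 43 (62.8%) and in 5.77% of all genes. CCAAT stood in 32 of 43 members (74.4%), 61.1% of replication genes and 39.7% of all genes, and both motifs stood together in 24 members (55.8%) and in 7.26% of all genes. The E2F motif TTTCGCGC was in 1 member (2.33%), CDK1, in 16.7% of replication genes and in 0.63% of all genes. Its form TTTGGCGC was in 2 members (4.65%), KIF15 and NUSAP1, in 19.4% of replication genes and in 0.795% of all genes. These matches are descriptions of letters in a window and not measured binding, and a missing match says only that the letters are not in that window.

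**Figure D1:**
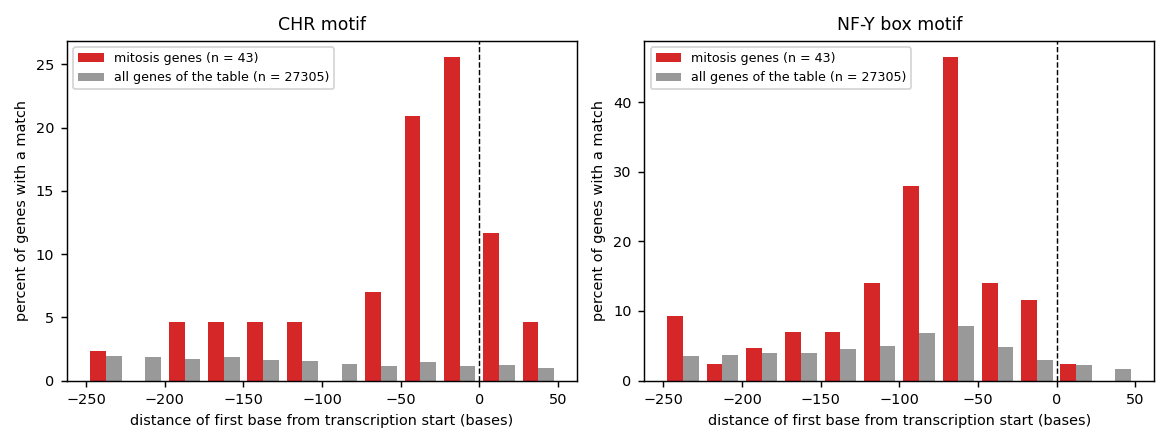
Share of genes (percent, vertical axis) with a CHR motif (TTTGAA, left) or an NF-Y box motif (CCAAT, right) whose first base lies in each 25-base bin of distance from the transcription start (horizontal axis, bases), for the 43 mitosis genes (red) and all 27305 genes of the table (grey). The CHR bars of the mitosis genes are tallest in the 25 bases before the start (25.6% of genes against 1.13% of all), and the NF-Y box bars are tallest between 75 and 50 bases before it (46.5% against 7.87%).

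Among the 43, the 32 members with TTTGAA in the window had a median log2 fold change of -1.87 at RA day 21 and -2.96 at BMP2 day 21 against day 0. The 11 members without it (CCNA2, CCNB1, CDC25B, MYBL2, BUB1, PTTG1, CENPE, AURKB, KIF2C, KIF20A and NCAPH) had medians of -2.22 and -3.01. Members without these letters had medians no closer to 0 than those with them. Only the exact letters were searched, so a member without them is not shown to lack a CHR. The part of the motif in the changes was not tested.

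Total counts were between 45773278 and 75754396 per library, a ratio of 1.65, and the lowest count of any member was 63 (CDC25C in replicate 2 of BMP2 day 21), with a median of 4619.5 over all members and libraries. Levels are given as CPM, read counts scaled to a common library size with TMM factors, as replicate 1 and replicate 2 and, along a treatment, in the order day 5, day 10 and day 21. They are compared between libraries for 1 gene, never between genes. Differences are log2 fold changes with their standard error (SE) and Benjamini-Hochberg adjusted p from edgeR's quasi-likelihood test over 19142 genes, and a gene is called higher or lower below an adjusted p of 0.05. At day 0 the cells had the pluripotency transcripts of embryonal carcinoma, such as POU5F1 (1011 and 1006 CPM) and LIN28A (2536 and 3050.3 CPM). By correlation of log2 levels over all genes, both BMP2 day 10 libraries stood apart from each other (r = 0.918): replicate 1 was nearest to replicate 2 of BMP2 day 5 (0.981), and replicate 2 was nearest to replicate 2 of BMP2 day 21 (0.966). Values at BMP2 day 10 are therefore given for both libraries, and counts of the other comparisons also without both of them.

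Nearly all mitosis genes were lower at day 21 of either treatment, and at day 5 the fall was called for 20 of them under BMP2 and for none under RA. Relative to the day 0 mean, the median member stood at 96.0% and 108.6% in the replicates of RA day 5, 60.2% and 74.3% at RA day 10 and 27.6% and 24.7% at RA day 21. Under BMP2 it stood at 61.5% and 41.5% on day 5, 38.1% and 17.0% on day 10, and 16.3% and 9.88% on day 21. Every library of RA day 10 and later, and every BMP2 library, had a median below both day 0 libraries (103% and 97.0%). In bulk RNA, fewer dividing cells and less of these transcripts in each cell cannot be told apart.

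**Figure D2:**
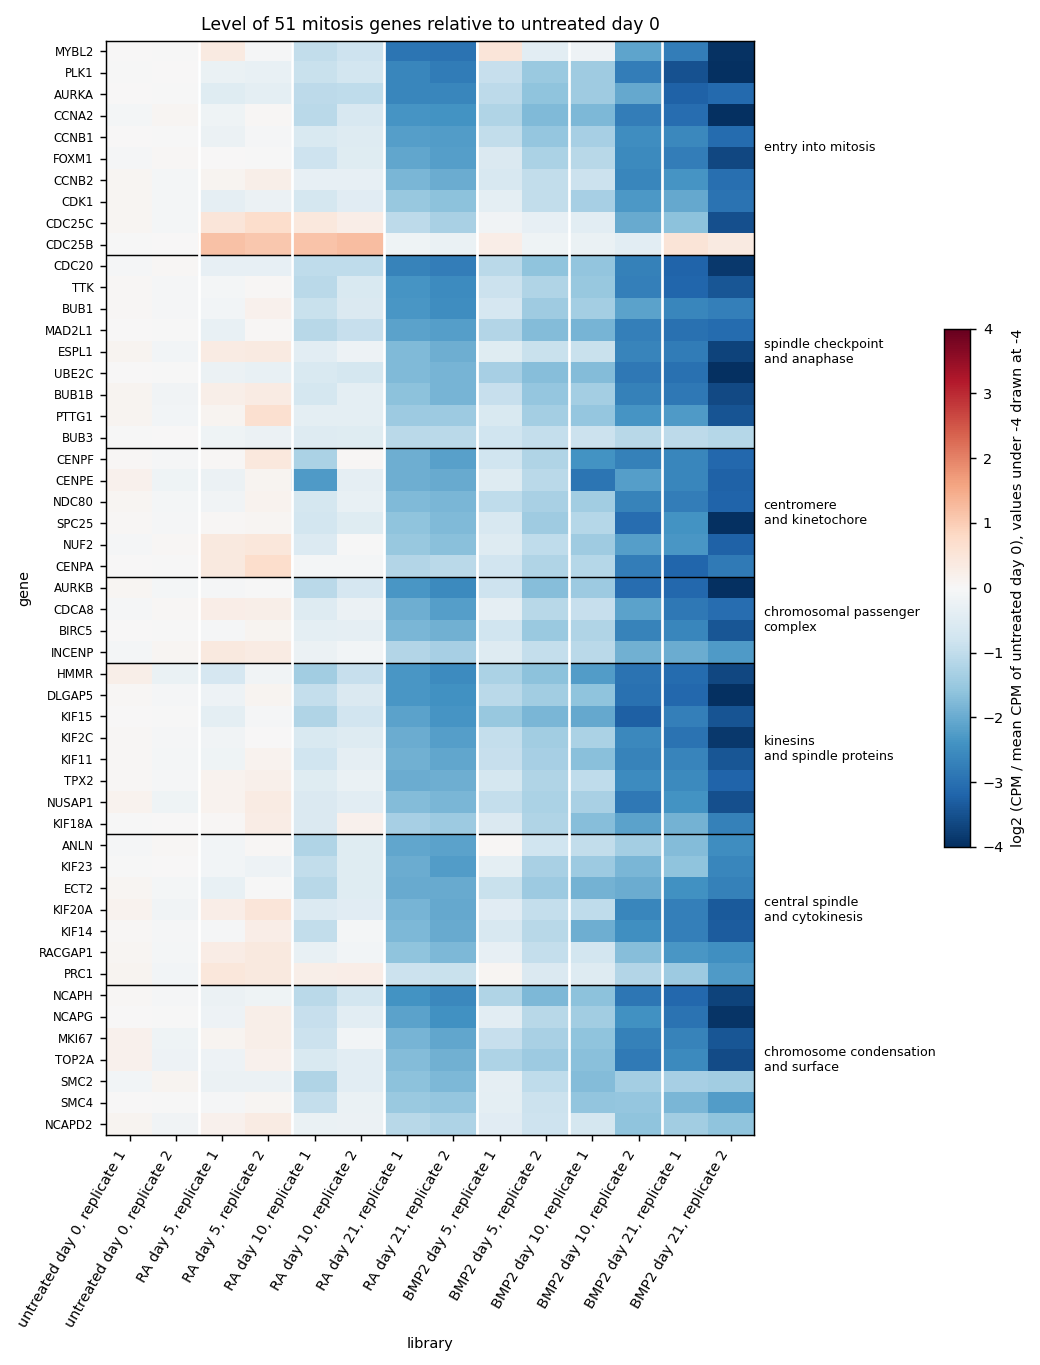
Heat map of the log2 ratio of each library's CPM to the day 0 mean (colour, blue lower, red higher, values under -4 drawn at -4) for the 51 mitosis genes (rows, grouped by role) in the 14 libraries (columns). Rows turn blue by day 21 of both treatments, replicate 2 of BMP2 day 10 is bluer than replicate 1 (medians of 17.0% and 38.1% of day 0), and CDC25B is red at RA day 5 and day 10.

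At RA day 5, 1 of 51 members was called higher and none lower, against 5.59% of all genes tested higher and 2.72% lower. The median member change was 0.02, and at an unadjusted p under 0.05 the count was likewise 1 (DESeq2 also called 1). At RA day 10, 5 members were called lower (AURKA, BUB3, MAD2L1, HMMR and ECT2) and 1 higher, against 11.1% of all genes lower and 12.9% higher, with a median of -0.56. Neither count exceeded the share over all genes in this fit. Members named from such counts, here and below, were named after their values were seen. At RA day 21, 48 members were called lower and none higher, against 21.1% and 23.4% of all genes, with a median of -1.96 and single values from -2.93 to -0.22. Without both BMP2 day 10 libraries these counts were 1 higher at RA day 5, 11 lower and 1 higher at RA day 10, and 50 lower at RA day 21. That fit called 2831 of 19106 genes lower and 3596 higher at RA day 10. With only the compared groups in the fit, 21 members were lower and 1 higher there, beside 2650 and 2981 of 17429 genes. How the RA day 10 count stood to the share over all genes thus moved with the fit. The RA day 10 count was 0 lower without replicate 1 of RA day 10 or replicate 2 of day 0, 1 lower without replicate 1 of day 0 or either RA day 21 library, 3 lower without replicate 2 of RA day 5, and 12 lower without either BMP2 day 10 library.

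At BMP2 day 5, 20 members were called lower and none higher, against 13.4% and 15.9% of all genes, with a median of -0.98. At BMP2 day 10, 46 were called lower and none higher, against 16.4% and 19.8%, with a median of -1.79; the 5 not called were CDC25B, CDC25C, MYBL2, SPC25 and PRC1. At BMP2 day 21, 50 were called lower and 1 higher, against 22.1% and 25.0%, with a median of -2.97 and single values from -3.76 to 0.44. Without both BMP2 day 10 libraries the day 5 count was 33 lower and the day 21 count 50 lower and 1 higher. The BMP2 day 5 count was 34 lower without either BMP2 day 10 library, and it dropped to 2 without replicate 2 of BMP2 day 5, to 5 and 6 without replicates 1 and 2 of day 0, to 11 without either RA day 21 library and to 13 without replicate 2 of RA day 5.

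Between day 5 and day 21 within RA, 50 members were called lower and none higher (14.8% and 13.9% of all genes), with a median of -2.03. Within BMP2, 47 were called lower and none higher (7.75% and 7.77%), with a median of -1.87; the exceptions were CDC25B, BUB3, SMC2 and SPC25. Without both BMP2 day 10 libraries these counts were 51 and 48 lower. The BMP2 count rested on single libraries and nearly vanished without replicate 1 of BMP2 day 5 or replicate 2 of BMP2 day 21. Few genes of any kind were called in those fits, and the member medians there were -1.64 and -1.60. The RA count also fell without replicate 2 of RA day 21, where the member median was -1.98.

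Among the 10 genes of mitotic entry, 8 were called lower at RA day 21 (median -2.19) and 9 at BMP2 day 21 (median -2.98). MYBL2 encodes B-MYB, the activator in MuvB complexes. Its level was 363 and 357 CPM at day 0, 464 and 349.6 at RA day 5, 182 and 204 at RA day 10 and 47.5 and 46.8 at RA day 21. Under BMP2 it was 504 and 268 on day 5, 309 and 84.3 on day 10 and 52.6 and 23.4 on day 21. The day 21 libraries of both treatments lay far below day 0, whereas at day 5 the replicates of each treatment lay on either side of it. The change was -2.93 ± 0.58 (SE) at RA day 21 (adjusted p = 0.0028), a 7.63-fold fall and the largest of any member there, and -3.24 ± 0.59 at BMP2 day 21 (adjusted p = 0.0015).

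PLK1, the polo-like kinase that drives mitotic entry and spindle assembly, stood at 264 and 271 CPM at day 0, 222 and 217 at RA day 5, 144 and 161 at RA day 10 and 43.6 and 38.3 at RA day 21. In the BMP2 arm its levels were 142 and 95.9, then 100.1 and 39.2, then 24.1 and 15.4 CPM at the same days. No treated library reached either day 0 value, and the BMP2 day 21 libraries were the lowest of the series. Its change of -3.76 ± 0.41 at BMP2 day 21 (adjusted p = 0.00014) was the largest of any member, a 13.5-fold fall, beside -2.71 ± 0.40 at RA day 21 (adjusted p = 0.00057). CDC25C, a phosphatase that activates CDK1, was not called at RA day 21, with 16.1 and 14.4 CPM at day 0 and 7.37 and 6.22 there (-1.16 ± 0.57, adjusted p = 0.121). The other genes of the list, the cyclin genes CCNA2, CCNB1 and CCNB2, their kinase CDK1, the spindle pole kinase AURKA and the transcription factor FOXM1, were called lower at day 21 of both treatments, with log2 changes from -2.59 to -1.58 in RA and from -3.51 to -2.43 in BMP2. FOXM1 overlaps other genes over 15.5% of its span, introns included, and the overlap of exons was not measured. If the counting ignored strand, which the sources used here do not say, reads in shared exons cannot be told apart.

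CDC25B, the phosphatase that starts CDK1 activation at the centrosome, was the only member called higher in a comparison with day 0 in the fit reported. It measured 51.1 and 51.9 CPM at day 0, rose to 116 and 109 at RA day 5 and 113 and 122 at RA day 10, and measured 45.5 and 43.0 at RA day 21. Under BMP2 the values were 62.1 and 46.2 on day 5, 42.5 and 38.7 on day 10 and 74.1 and 65.5 on day 21. All 4 libraries of RA day 5 and day 10 lay above every other library, and those of BMP2 day 21 lay above day 0. The changes were 1.13 ± 0.16 at RA day 5 (adjusted p = 0.0028) and 1.19 ± 0.16 at RA day 10 (adjusted p = 0.0010). At RA day 21 the difference from day 0 was -0.22 ± 0.16 (adjusted p = 0.276), and at BMP2 day 21 it was 0.44 ± 0.16 (adjusted p = 0.0416). That last call was lost with median-ratio (RLE) scaling (adjusted p = 0.0532), with no filter on low counts (0.0904), with a fit of the compared groups alone (0.0748), and without any 1 library of day 0, RA or BMP2 day 21 (0.0602 to 0.187).

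All 9 genes of the spindle checkpoint and anaphase were called lower at day 21 of both treatments (medians -1.84 in RA and -3.19 in BMP2). CDC20, which activates the anaphase-promoting complex once the checkpoint is satisfied, measured 343 and 363 CPM at day 0, 281 and 278, then 176 and 176, then 55.8 and 51.6 at RA days 5, 10 and 21, and 167 and 117, then 119 and 54.8, then 38.5 and 24.3 at the same BMP2 days. Both day 0 libraries exceeded all 12 treated ones. It changed by -2.72 ± 0.35 at RA day 21 (adjusted p = 0.00031) and -3.49 ± 0.36 at BMP2 day 21 (adjusted p = 0.00011). TTK encodes the MPS1 kinase that starts checkpoint signalling at unattached kinetochores. Its levels were 107 and 101 CPM at day 0, 97.8 and 107, then 49.7 and 67.7, then 20.5 and 18.3 along RA, and 57.8 and 44.8, then 36.5 and 15.6, then 11.7 and 9.70 along BMP2. RA day 5 overlapped day 0, and each later group lay below it, with -2.42 ± 0.34 at RA day 21 (adjusted p = 0.00050) and -3.29 ± 0.36 at BMP2 day 21 (adjusted p = 0.00013).

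BUB3, a checkpoint protein that also has roles outside mitosis, had the smallest day 21 change of its list. It measured 142 and 147 CPM at day 0, 129 and 121, then 100.2 and 104, then 68.6 and 68.6 at RA days 5, 10 and 21, and 82.1 and 75.2, then 80.0 and 66.4, then 69.0 and 64.7 at the same BMP2 days. The RA day 21 replicates lay between those of BMP2 day 21, and all were below day 0. The changes were -1.07 ± 0.13 (adjusted p = 0.00025) and -1.11 ± 0.13 (adjusted p = 0.00019). Under BMP2 it was lower by day 5 (-0.87 ± 0.13, adjusted p = 0.0013), and day 21 against day 5 gave -0.23 ± 0.13 (adjusted p = 0.230). The other 6, the checkpoint genes BUB1, BUB1B and MAD2L1, the ubiquitin-conjugating enzyme gene UBE2C, and the securin and separase genes PTTG1 and ESPL1, changed by -2.40 to -1.46 at RA day 21 and by -3.42 to -2.66 at BMP2 day 21.

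Of the 6 centromere and kinetochore genes, 5 were called lower at RA day 21 (median -1.75) and 6 at BMP2 day 21 (median -2.93). CENPF, a large protein of the outer kinetochore, measured 1171 and 1102 CPM at day 0, 1186 and 1513 at RA day 5, 476 and 1164 at RA day 10 and 294 and 251 at RA day 21. Under BMP2 the levels were 657 and 492, then 216 and 175, then 185 and 130.1. The RA day 10 replicates differed from each other, the second lying within the day 0 range and the first below the BMP2 day 5 values. Its change was -2.06 ± 0.37 at RA day 21 (adjusted p = 0.0017) and -2.85 ± 0.38 at BMP2 day 21 (adjusted p = 0.00033). CENPE, a kinesin that carries chromosomes to the spindle equator, measured 124 and 98.2 CPM at day 0, 95.4 and 121, then 23.3 and 85.9, then 28.8 and 27.4 along RA, and 78.1 and 53.1, then 14.6 and 24.1, then 18.3 and 11.8 along BMP2. Replicate 1 was lower than replicate 2 at day 10 of both treatments. The day 21 changes were -1.98 ± 0.52 (adjusted p = 0.0112) and -2.88 ± 0.54 (adjusted p = 0.0018).

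CENPA, the histone H3 variant that marks centromeres, measured 27.3 and 27.1 CPM at day 0, 35.8 and 44.3, then 25.6 and 25.6, then 12.0 and 13 at RA days 5, 10 and 21, and 15.8 and 11.7, then 12.2 and 4.001, then 3.02 and 3.82 at the same BMP2 days. Each RA group lay above the BMP2 group of the same day without overlap. It changed by -1.12 ± 0.41 at RA day 21 (adjusted p = 0.0459) and -2.99 ± 0.44 at BMP2 day 21 (adjusted p = 0.00049). SPC25, a subunit of the NDC80 complex that binds microtubules, measured 43.8 and 41.0 CPM at day 0, 44.0 and 44.6, then 25.5 and 30.2, then 13.8 and 12.4 along RA, and 27.1 and 15.8, then 19.3 and 5.14, then 8.15 and 2.12 along BMP2. Its BMP2 replicates were far apart at day 10 and day 21, and the difference from day 0 was -1.69 ± 0.64 at RA day 21 (adjusted p = 0.0528, not called) and -3.04 ± 0.67 at BMP2 day 21 (adjusted p = 0.0044). The other 2 subunit genes of that complex, NDC80 and NUF2, were called lower at RA day 21 (-1.80 and -1.60) and BMP2 day 21 (-2.97 and -2.70). CENPA, SPC25 and NUF2 overlap other genes over 46.1%, 50.7% and 61.9% of their spans, introns included. The overlap of exons was not measured, so their values are uncertain as far as reads were shared with those genes.

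All 4 genes of the chromosomal passenger complex, which corrects wrong kinetochore attachments, were called lower at day 21 of both treatments (medians -1.97 and -2.96). Its kinase gene AURKB measured 90.8 and 82.1 CPM at day 0, 83.9 and 84.7, then 41.1 and 53.7, then 17.2 and 14.7 along RA, and 49.2 and 26.6, then 31.4 and 10.53, then 9.77 and 3.95 along BMP2. Replicate 2 of BMP2 day 21 was the lowest library, and every day 21 library lay below every library of day 0, day 5 and RA day 10. The changes were -2.44 ± 0.53 (adjusted p = 0.0047) and -3.66 ± 0.57 (adjusted p = 0.00066). CDCA8, the borealin subunit, measured 149 and 162 CPM at day 0, 188 and 182, then 108 and 132, then 40.2 and 33.8 along RA, and 119.9 and 72.6, then 82.3 and 35.1, then 21.2 and 18.9 along BMP2. Day 21 lay below all earlier libraries except that replicate 2 of BMP2 day 10 fell among the RA day 21 values, and the changes were -2.07 ± 0.36 (adjusted p = 0.0014) and -2.95 ± 0.37 (adjusted p = 0.00025).

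The scaffold subunit INCENP had the smallest change of the complex at day 21. It measured 132 and 146 CPM at day 0, 181 and 173, then 118 and 129.7, then 62.3 and 55.6 at RA days 5, 10 and 21, and 96.3 and 71.2, then 66.1 and 36.7, then 34.8 and 29.2 at the same BMP2 days. Both RA day 21 libraries lay above both BMP2 day 21 libraries, and all 4 were below day 0. The changes were -1.24 ± 0.25 in RA (adjusted p = 0.0033) and -2.12 ± 0.26 in BMP2 (adjusted p = 0.00022). BIRC5, which encodes survivin, changed by -1.87 ± 0.43 and -2.96 ± 0.45.

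All 8 kinesins and spindle proteins were called lower at day 21 of both treatments (medians -2.05 and -3.0). HMMR, a microtubule-binding protein of the spindle, measured 162 and 116 CPM at day 0, 87.5 and 126, then 52.6 and 73.9, then 27.5 and 24.4 along RA, and 58.1 and 44.5, then 29.7 and 17.9, then 16.5 and 11.2 along BMP2. RA day 5 overlapped the wide day 0 range, and all later groups lay below it. The changes were -1.13 ± 0.32 at RA day 10 (adjusted p = 0.0283), -2.42 ± 0.33 at RA day 21 (adjusted p = 0.00042) and -3.33 ± 0.34 at BMP2 day 21 (adjusted p = 0.00011). DLGAP5, which stabilises kinetochore fibres, measured 194 and 178 CPM at day 0, 162 and 201, then 95.5 and 124, then 37.3 and 34.5 along RA, and 87.9 and 70.5, then 60.4 and 23.5, then 21.3 and 10.98 along BMP2. Again RA day 5 overlapped day 0 and nothing later did. DLGAP5 changed by -2.37 ± 0.42 at RA day 21 (adjusted p = 0.0016) and -3.53 ± 0.44 at BMP2 day 21 (adjusted p = 0.00025).

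KIF18A, a kinesin that damps chromosome movements, measured 41.0 and 42.0 CPM at day 0, 42.8 and 50.8, then 27.6 and 46.4, then 16.4 and 15.2 along RA, and 27.7 and 18.1, then 12.9 and 9.34, then 11.1 and 6.36 along BMP2. At RA day 10 replicate 2 lay above day 0 and replicate 1 below it, and both day 21 groups lay below day 0. It changed least of its list, by -1.39 ± 0.33 at RA day 21 (adjusted p = 0.0075) and -2.25 ± 0.34 at BMP2 day 21 (adjusted p = 0.00063). The spindle motor genes KIF11 and KIF15, the microtubule depolymerase gene KIF2C and the spindle assembly genes TPX2 and NUSAP1 changed by -2.25 to -1.77 at RA day 21 and by -3.35 to -2.83 at BMP2 day 21.

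All 7 genes of the central spindle and cytokinesis were called lower at day 21 of both treatments (medians -1.95 and -2.39). ANLN, the actin-binding anillin of the cleavage furrow, measured 380.0 and 398 CPM at day 0, 361 and 398, then 169 and 279, then 92.0 and 88.2 along RA, and 398 and 225, then 198 and 153, then 118 and 69.8 along BMP2. The RA and BMP2 values overlapped at day 21, and day 5 of both treatments reached day 0 levels in 1 replicate. ANLN changed by -2.11 ± 0.34 (adjusted p = 0.00096) and -2.05 ± 0.34 (adjusted p = 0.00096). KIF23, a kinesin of the centralspindlin complex, measured 227 and 229 CPM at day 0, 209.8 and 197, then 116 and 162, then 57.9 and 48.5 along RA, and 174 and 92.1, then 83.6 and 63.6, then 75.1 and 37.8 along BMP2. Its RA day 21 values lay between the BMP2 day 21 replicates, and the changes were -2.10 ± 0.36 (adjusted p = 0.0014) and -2.02 ± 0.36 (adjusted p = 0.0015).

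KIF20A, a kinesin that carries the passenger complex to the central spindle, had the largest BMP2 day 21 change of the list. It measured 181 and 149 CPM at day 0, 200.1 and 232, then 114 and 122, then 45.7 and 39.9 along RA, and 119.5 and 84.8, then 82.2 and 27.2, then 24.9 and 16.0 along BMP2. RA day 5 lay above day 0 and every other treated group below it, with -1.95 ± 0.43 (adjusted p = 0.0048) and -3.01 ± 0.45 (adjusted p = 0.00054) at day 21. PRC1, which bundles central spindle microtubules, measured 123 and 105 CPM at day 0, 157 and 150.0, then 134 and 139, then 62.6 and 61.0 along RA, and 121 and 76.1, then 79.9 and 50.5, then 42.1 and 23.7 along BMP2. RA day 5 and day 10 lay above day 0, and all 4 day 21 libraries lay below it. It changed least of the list, by -0.88 ± 0.30 (adjusted p = 0.0374) and -1.80 ± 0.31 (adjusted p = 0.0012). An antisense gene covers 75.3% of the PRC1 span, introns included, and the overlap of exons was not measured. If the counting ignored strand, reads in shared exons cannot be told apart. The other 3 genes of the list, KIF14, ECT2 and RACGAP1, changed by -2.01 to -1.70 in RA and by -3.0 to -2.39 in BMP2.

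All 7 genes of chromosome condensation and the chromosome surface were called lower at day 21 of both treatments (medians -1.84 and -2.98). MKI67 encodes Ki-67, which coats mitotic chromosomes and is the usual marker of cycling cells. Its levels were 616 and 486 CPM at day 0, 591 and 646, then 302 and 516, then 152 and 131 along RA, and 294 and 226, then 179 and 83.8, then 85.7 and 51.5 along BMP2. RA day 5 overlapped the range at day 0, replicate 2 of RA day 10 lay inside it, and all BMP2 groups lay below it. The changes were -1.96 ± 0.39 at RA day 21, a 3.89-fold fall (adjusted p = 0.0028), and -3.01 ± 0.41 at BMP2 day 21, an 8.04-fold fall (adjusted p = 0.00034).

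**Figure D3:**
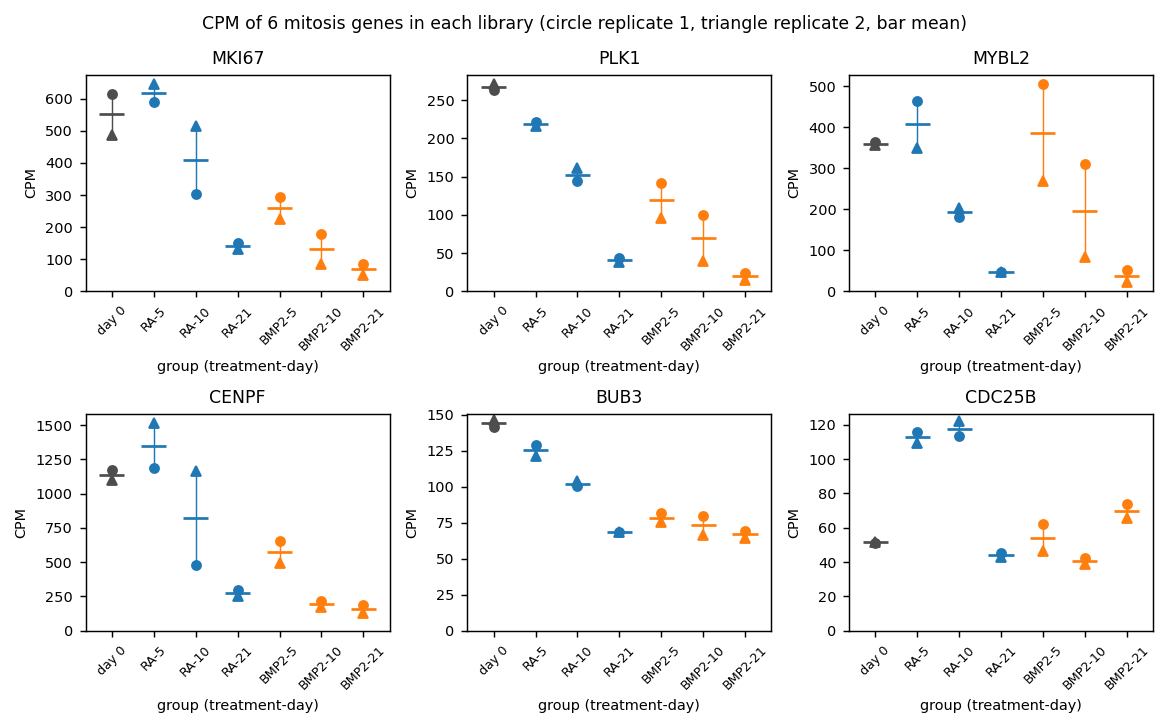
CPM (vertical axis, linear and starting at 0) of MKI67, PLK1, MYBL2, CENPF, BUB3 and CDC25B in each of the 14 libraries, by treatment and day (horizontal axis; grey day 0, blue RA, orange BMP2). Circles are replicate 1, triangles replicate 2 and bars the mean of 2; MYBL2 replicates differ most at BMP2 day 5 and day 10, and CDC25B peaks at RA day 5 and day 10.

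Condensin I, which compacts mitotic chromosomes, has the members NCAPH, NCAPG and NCAPD2 besides the ATPase subunits SMC2 and SMC4 that it shares with condensin II. NCAPH measured 134 and 125 CPM at day 0, 111 and 114, then 61.3 and 77.8, then 24.9 and 21.5 along RA, and 56.8 and 37.7, then 41.2 and 17.4, then 14.7 and 9.85 along BMP2. All 12 treated libraries lay below both day 0 libraries, with -2.48 ± 0.38 at RA day 21 (adjusted p = 0.00071) and -3.40 ± 0.39 at BMP2 day 21 (adjusted p = 0.00017). NCAPG measured 167 and 164 CPM at day 0, 145 and 196, then 86.9 and 123, then 37.5 and 30.6 along RA, and 123 and 76.3, then 63.1 and 31.1, then 21.5 and 10.98 along BMP2. The RA day 5 replicates lay on either side of day 0, and the day 21 changes were -2.28 ± 0.41 (adjusted p = 0.0017) and -3.35 ± 0.43 (adjusted p = 0.00028).

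NCAPD2 measured 880.3 and 743 CPM at day 0, 921 and 1009.5, then 669 and 695, then 373 and 344 along RA, and 589 and 457, then 494 and 269, then 308 and 269 along BMP2. Its day 21 libraries were all below day 0 and RA lay above BMP2, with the smallest RA day 21 change of the list, -1.18 ± 0.26 (adjusted p = 0.0044), and -1.49 ± 0.26 at BMP2 day 21 (adjusted p = 0.0012). SMC2 and SMC4 changed by -1.71 ± 0.27 and -1.51 ± 0.24 in RA and by -1.35 ± 0.27 and -2.01 ± 0.24 in BMP2. TOP2A, the topoisomerase that untangles sister chromosomes, changed by -1.84 ± 0.40 and -2.98 ± 0.41.

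Comparing the treatments directly at day 5, 13 members were called higher in RA than in BMP2 and none lower, against 5.97% of all genes higher and 6.25% lower, and the median difference was 1.05. The 13 were CCNA2, CDC25B, AURKA, BUB1, BUB1B, BUB3, MAD2L1, CENPA, NUF2, INCENP, KIF15, ECT2 and NCAPD2, and the remaining 38 also had positive differences. At day 10, 22 members were called higher in RA and none lower, against 5.11% and 5.73% of all genes, with a median of 1.22. The largest of these was CENPF, at 2.07 ± 0.37 (adjusted p = 0.0094). Without both BMP2 day 10 libraries the day 5 count was 38, where 2104 of 19106 genes were higher and 2184 lower. Both counts moved strongly when single libraries were left out. Over all alternatives the member median ranged from 0.81 to 1.32 at day 5 and from 0.78 to 1.94 at day 10.

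At day 21, 4 members were called higher in RA than in BMP2 and 1 lower, against 5.99% and 6.07% of all genes, although the median difference was 0.91 and 47 of 51 members had a positive one. The count of 4 is near the share over all genes, and the count of 1 is below it. Higher were CENPA at 1.87 ± 0.42 (adjusted p = 0.0202), UBE2C at 1.61 ± 0.38 (adjusted p = 0.0258), BUB1B at 1.43 ± 0.40 (adjusted p = 0.0462) and INCENP at 0.88 ± 0.25 (adjusted p = 0.0483). UBE2C, which primes anaphase substrates with ubiquitin, measured 46.5 and 43.4 CPM in RA and 20.0 and 9.32 in BMP2, and BUB1B, the checkpoint protein BUBR1, measured 54.5 and 47.0 in RA and 23.4 and 14.2 in BMP2. For both genes the RA libraries lay above the BMP2 libraries. Lower in RA was CDC25B, at -0.66 ± 0.16 (adjusted p = 0.0258). The count of members was 33 higher and 1 lower without both BMP2 day 10 libraries, where 2053 of 19106 genes were higher and 2332 lower. It also moved when single libraries were left out, while the member median ranged from 0.61 to 1.31 over all alternatives. The number of members that differ between the treatments at day 21 is therefore not settled by these libraries.

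**Figure D4:**
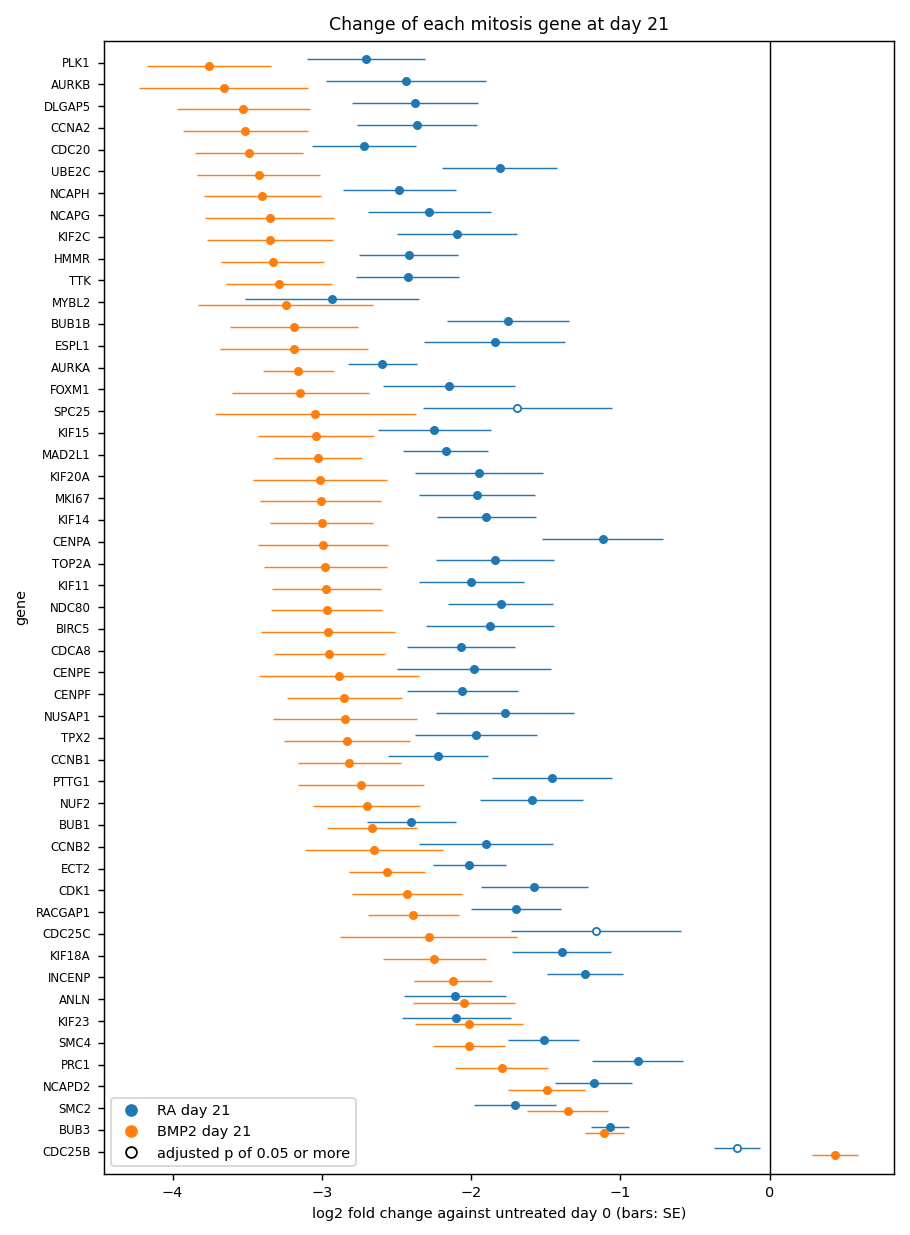
Log2 fold change against untreated day 0 (horizontal axis, bars SE) of each of the 51 mitosis genes (rows, ordered by the BMP2 value) at RA day 21 (blue) and BMP2 day 21 (orange); open circles have an adjusted p of 0.05 or more. All members but CDC25B have negative values in both treatments, and in 47 rows the RA point lies to the right of the BMP2 point; both treatments share the day 0 libraries.

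The time course itself was compared with an interaction, the day 21 against day 5 difference in RA minus the same difference in BMP2. Only CDC25B was called among the 51, against 0.705% of all genes higher and 0.935% lower, with a value of -1.72 ± 0.22 (adjusted p = 0.0109). It changed by -1.35 ± 0.16 from day 5 to day 21 in RA and by 0.37 ± 0.16 in BMP2 (adjusted p = 0.130). Without either RA day 21 library the interaction was of the same size but no longer called (adjusted p = 0.0834 and 0.0822). BUB3 had an interaction of -0.63 ± 0.18 (adjusted p = 0.104), and it was called without both BMP2 day 10 libraries (-0.65, adjusted p = 0.0367) and by DESeq2 (-0.66, adjusted p = 0.0118). For the other 49, a difference in course was not detectable with 2 libraries a group.

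Some pairs of libraries differed in the members in step with transcript length or base composition, most by length in pairs with a day 10 library. Over the 51 members, the log2 ratio of replicate 1 to replicate 2 of RA day 10 had a correlation of -0.58 with log2 transcript length and 0.51 with the percentage of G and C, and over 11453 genes with a mean CPM of at least 5 the values were -0.21 and 0.24. The ratio of replicate 1 of BMP2 day 10 to replicate 2 of BMP2 day 5, the library most like it, gave -0.52 and 0.54 over the members, and the BMP2 day 10 replicates gave -0.48 and 0.43. The RA day 5 replicates gave -0.14 and 0.60, the BMP2 day 5 replicates -0.22 and 0.16, the BMP2 day 21 replicates -0.30 and 0.03, the day 0 replicates 0.14 and -0.19, and the RA day 21 replicates 0.20 and -0.01. The correlation with G and C was thus as large at RA day 5 as at day 10. All points of a panel share the same pair of libraries, so these are descriptions. The 17 members with the longest transcripts (4087 to 12678 bases) had a median log2 ratio of -0.50 between the RA day 10 replicates, and the 17 shortest (914 to 2704 bases) had -0.16. Of the long genes, CENPE, CENPF and MKI67 were lower in replicate 1 than in replicate 2 of RA day 10, as their values above show. The part of transcript length and base composition in the results at any day was not tested.

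**Figure D5:**
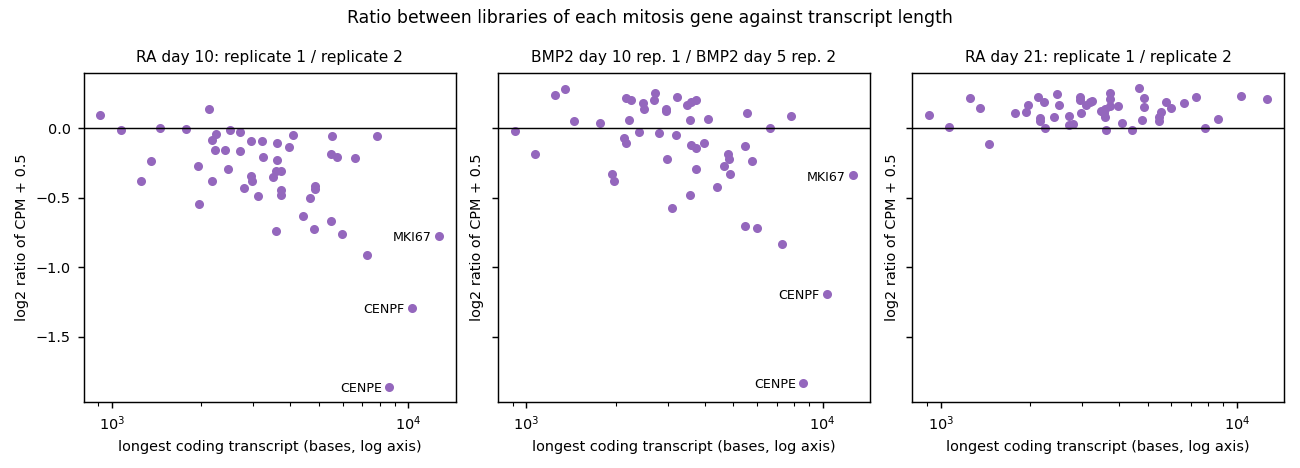
Log2 ratio between 2 libraries (vertical axis, CPM + 0.5) of each of the 51 mitosis genes against the length of its longest coding transcript (horizontal axis, bases, log scale), for RA day 10 replicate 1 over replicate 2, BMP2 day 10 replicate 1 over BMP2 day 5 replicate 2, and RA day 21 replicate 1 over replicate 2. Ratios tend to fall with length in the first pair of panels (correlations of -0.58 and -0.52), where CENPE, CENPF and MKI67 are labelled. Some long transcripts do not lie low, such as BUB3 (7828 bases, -0.05 and 0.09) and NCAPD2 (5548 bases, -0.06 and 0.11). No such slope is seen in the third panel (0.20).

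Of 97 other mitosis genes on lists of the same pathway, 78 were called lower and 2 higher at RA day 21 (median -1.41), and 80 lower and 2 higher at BMP2 day 21 (median -1.87). Among 34 further kinetochore and centromere genes, 29 were lower in RA and 30 in BMP2 (medians -1.52 and -2.23), led in RA by SKA3 of the SKA complex (-2.89 ± 0.36) and CENPN of the inner kinetochore (-2.63 ± 0.36). Among 30 further spindle, midbody and kinase genes, 29 and 30 were lower (medians -1.58 and -2.62), led by PIMREG (-2.93 ± 0.38) and CDC25A (-2.81 ± 0.35), a phosphatase that activates cyclin-dependent kinases. The remaining 3 condensin genes were lower in both, with NCAPG2 at -1.98 ± 0.33 and NCAPD3 at -1.45 ± 0.20 in RA.

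Cohesin, which holds sister chromosomes together and also acts between divisions, had smaller medians: 10 of 13 genes were lower and 1 higher at day 21 of each treatment (medians -0.91 and -0.80). Its leading genes in RA were the sororin gene CDCA5 (-2.37 ± 0.40) and SMC3 (-1.41 ± 0.26), and the gene that rose was MAU2 of the cohesin loader (0.49 ± 0.14), named after its values were seen. Of 17 genes of the anaphase-promoting complex and its regulators, 7 were lower and 1 higher in each treatment (medians -0.30 and -0.58), beside all-gene shares of 21.1% lower and 23.4% higher in RA and 22.1% and 25.0% in BMP2. The inhibitor gene FBXO5 (-1.90 ± 0.33) and the ubiquitin-conjugating enzyme gene UBE2S (-1.61 ± 0.26) fell in RA, while the subunit gene ANAPC13 rose (0.84 ± 0.21), also named after its values were seen. Of 40 DNA replication genes tested, 38 were lower at RA day 21 and 40 at BMP2 day 21 (medians -1.86 and -2.24), beside -1.96 and -2.97 for the 51 mitosis genes; over all 19142 genes the medians were 0.10 and 0.04.

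The list of 16 genes held pocket proteins, E2F and TFDP factors, MuvB subunits and cyclin-dependent kinase inhibitors. Of these 16, 7 were higher and 7 lower at RA day 21, and 4 higher and 7 lower at BMP2 day 21. Over all genes tested, 23.4% were higher and 21.1% lower at RA day 21, and 25.0% and 22.1% at BMP2 day 21, so the 4 of 16 higher under BMP2 are at the background share. The 7 lower genes were the same in both treatments: RBL1, E2F4, E2F5, E2F6, TFDP1, LIN9 and RBBP4. RBL2, RB1, LIN37 and CDKN1A were higher in both, and TFDP2, CDKN1B and CDKN1C at RA day 21 only. LIN52 and LIN54 were called in neither. RBL2, which encodes p130, rose by 1.59 ± 0.21 and 1.5 ± 0.21, and RBL1, which encodes p107, changed by -1.54 ± 0.37 and -1.78 ± 0.38. Of their partners, E2F4 changed by -0.62 and -0.71, LIN9 by -1.23 and -1.39, and LIN37 by 2.21 and 2.52. CDKN1A, the p21 inhibitor, measured 7.46 and 10.1 CPM at day 0, 21.9 and 11.9, then 57.2 and 43.1, then 136 and 206 along RA, and 17.0 and 10.6, then 11.1 and 466, then 289 and 496 along BMP2. Of the 2 BMP2 day 10 libraries, the one with the lower mitosis gene levels had the higher CDKN1A level. These libraries stood apart over all genes (r = 0.918), and a link between CDKN1A and the mitosis genes was not tested. These genes are named after their values were seen.

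Markers of cell identity moved with the same groups, and their part in the changes of the mitosis genes was not tested. The summed level of 8 pluripotency markers was 8028 to 9405 CPM at day 0, 2566 to 3279 at RA day 5, 666 to 1096 at RA day 10 and 708 to 799 at RA day 21. Under BMP2 it was 1373 to 1485, 980 to 1571 and 990 to 1751. All 8 were called lower at RA day 21 and 7 at BMP2 day 21. At BMP2 day 10, POU5F1 measured 109.7 and 1.52 CPM in the replicates, so that the library with higher mitosis gene levels also had the higher POU5F1 level.

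The 7 fibroblast and matrix markers summed to 19.9 to 30.9 CPM at day 0, 5825 to 5854 at RA day 21 and 32410 to 33542 at BMP2 day 21, with all 7 called higher in both, and at BMP2 day 10 the replicates spanned 1717 to 14170. Of 10 neuron markers, 8 were in the table and tested, and their sum was 80.8 to 106 CPM at day 0, 730 to 1054 at RA day 10 and 537 to 570 at RA day 21, against 128 to 191 at BMP2 day 21. At RA day 21, 3 of the 8 were called higher and 1 lower, with NEFM at 358 and 359 and MAP2 at 133 and 171 CPM, while the neuronal genes STMN2 (0.478 and 0.162), ELAVL3 (0.837 and 0.795) and ELAVL4 (0.508 and 0.189) were near 0. The 6 smooth muscle markers summed to 35.4 to 88.9 CPM at day 0 and 105 to 153 at RA day 21, and along BMP2 to 571 to 1307, then 656 to 1271, then 352 to 525, with 4 of the 6 called higher at BMP2 day 21. The skeletal muscle factor gene MYOD1 was at 0 in both BMP2 day 21 libraries and MYOG was at 0 and 0.294 CPM there. Of the 9 cardiac and skeletal muscle markers, 7 were tested, with 1 higher and 2 lower, at BMP2 day 21; the summed level was 51.4 to 86.9 CPM at day 0, and along BMP2 351 to 1948, then 398 to 664, then 237 to 270.1. The 7 glial markers summed to 79.9 to 96.7 CPM at day 0, 32.8 to 41.3 at RA day 21 and 58.7 to 70.9 at BMP2 day 21. The 6 epithelial markers summed to 1513 to 1765 CPM at day 0, 2381 to 2890 at RA day 21 and 4106 to 4231 at BMP2 day 21.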

How the data were processed

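The authors deposited 1 table of raw read counts per gene, with 25952 Ensembl gene IDs in rows and the 14 libraries in columns. Per the submitters' processing notes the tools were STAR, featureCounts and DESeq2 with the build hg19; versions and the strand setting are not given in the sources used here. Among counts of 1 to 19, between 66.0% and 73.5% were even; if both mates of a fragment were counted, which was not settled, counts overstate the number of fragments. Of the IDs, 25214 took their symbol from the reference list of gene names, 58 from GENCODE v29, and 680 stayed unnamed.

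Libraries were grouped by their titles. Genes that passed filterByExpr (minimum count 10, leaving 19142) were normalised with TMM and fitted in edgeR 4.0.16 (R 4.3.3) as 7 group means over the 14 libraries. The quasi-likelihood F test gave the p-values, which were Benjamini-Hochberg adjusted over all genes tested. The biological coefficient of variation was 0.368. Total counts were 45773278 to 75754396. Samples with the same replicate number did not deviate together (r from -0.34 to 0.15 over 21 pairs of groups), so no block was used. The alternatives were RLE scaling, 2 other filters, DESeq2 1.42.0, a replicate block, a fit of the compared groups alone and leaving out each library; a fit without both BMP2 day 10 libraries was added after seeing the data. The edgeR test was tried on simulated counts with changes set at RA day 21. It recovered 0% of 1.5-fold, 10% of 2-fold, 62% of 4-fold and 80% of 8-fold changes, each set in 50 of 18649 genes tested. The 1.5-fold and 4-fold changes were all falls and the others all rises, so size and direction were not separated. Far fewer genes were changed than in the data, which makes the adjusted cut stricter. These shares therefore do not carry over to the members. A missing call for a small change still says little with 2 libraries a group. Tables and figures were made with Python 3.11.15, pandas 2.3.3 and matplotlib 3.10.9.

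The members, the lists of other genes and the markers were chosen with earlier results of these data known. Values in every library are given for the 2 largest and the smallest change of each role list at RA day 21, the largest at BMP2 day 21, MKI67, and every member called higher against day 0; of other lists, the 2 called with the largest change at RA day 21 are named. For the fit reported, the count over all 51 members is printed in each comparison beside the share of all genes called. Counts of role lists, of some other lists and of most alternatives stand without that share, which moved with the fit. For RA against BMP2 at day 5, 1142 genes were called higher and 1196 lower, and 2104 and 2184 without both BMP2 day 10 libraries. At day 10 these were 979 and 1096, and 6 and 3 with the compared groups alone.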

Additional observations from a re-analysis of the deposited data

Results flagged for a closer look

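CDC25B had an interaction between treatment and time, the change from day 5 to day 21 in RA minus that in BMP2, of -1.72 ± 0.22 (SE, adjusted p = 0.0109, edgeR's quasi-likelihood test). Its level fell from 116 and 109 CPM at RA day 5 to 45.5 and 43.0 at RA day 21, and it measured 62.1 and 46.2 CPM at BMP2 day 5 and 74.1 and 65.5 at BMP2 day 21. It drew attention because the difference between the treatments was itself tested and passed, while of the other 50 members none did in that fit.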

How the results depend on the processing

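At RA day 10 against day 0 the 5 lower and 1 higher members became 0 lower and 1 higher without replicate 1 of RA day 10 or replicate 2 of day 0, and 1 of each without replicate 1 of day 0 or either RA day 21 library. In the other comparisons no alternative tried turned the balance of higher and lower calls, although some left no call at all. With only the compared groups in the fit, the number of members called was 22 at RA day 10 against day 0 (6 in the fit reported), 37 at BMP2 day 5 (20), 10 at BMP2 day 10 (46), 27 for RA against BMP2 at day 5 (13), 0 at day 10 (22) and 23 at day 21 (5). Without a filter on low counts the treatments differed in 29 members at day 5, 37 at day 10 and 13 at day 21, and DESeq2 called 33, 39 and 16 there and 2 in the interaction. Without both BMP2 day 10 libraries, an alternative chosen after seeing the data, the counts were 12 at RA day 10, 33 at BMP2 day 5, 38 between the treatments at day 5, 34 between them at day 21 and 2 in the interaction. RLE scaling and the filter of at least 1 CPM in 2 libraries left every member count within 1.5 times.

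Leaving out 1 library at a time gave 1 to 1 members at RA day 5 against day 0, 1 to 13 at RA day 10, 39 to 49 at RA day 21, 2 to 34 at BMP2 day 5, 37 to 50 at BMP2 day 10 and 49 to 51 at BMP2 day 21. Between the treatments it gave 1 to 38 at day 5, 2 to 46 at day 10 and 0 to 35 at day 21. From day 5 to day 21 it gave 32 to 51 in RA and 0 to 48 in BMP2, and 0 to 2 in the interaction. The cause was not tested. The median change of the members ranged over all alternatives from -2.03 to -1.84 at RA day 21 and from -3.34 to -2.60 at BMP2 day 21 against day 0, from -0.71 to -0.40 at RA day 10, from -1.27 to -0.67 at BMP2 day 5 and from -2.56 to -1.39 at BMP2 day 10. Between the treatments it ranged from 0.81 to 1.32 at day 5, 0.78 to 1.94 at day 10 and 0.61 to 1.31 at day 21. It changed sign near 0 at RA day 5 (-0.04 to 0.12) and in the interaction (-0.46 to 0.27).

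With the replicate number as a block, 19 members differed between the treatments at day 5, 28 at day 10 and 7 at day 21, and 48 and 51 were called at day 21 of RA and BMP2 against day 0. The block uses the numbers of the titles; the descriptions of the RA day 21 libraries carry other numbers, so theirs are in doubt. The numbers did not pair the samples (3 of 21 pairs of groups had a correlation above 0.1). With 2 libraries a group, 7 residual degrees of freedom and a biological coefficient of variation of 0.368, the precision is that of few libraries. The lowest count of a member was 63, and how far depth limits the calls was not tested.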
